A study of Mus musculus with 6 samples.

Results

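The genes described here are the cytosolic heat shock chaperones, a list of 10 genes: Hspa1a, Hspa1b, Hspa8, Hsph1, Dnajb1, Dnaja1, Hsp90aa1, Hsp90ab1, Hspb1 and Bag3. They were followed through every Affymetrix probe set whose platform annotation gave 1 of these symbols alone. This gave 23 probe sets of 45101 on the array, for 9 of the 10 genes. No probe set carried Hsp90ab1 as its symbol, so that gene was not analysed here. The arrays were hybridised with total RNA from NIH3T3 cells, an immortalised mouse fibroblast line, all of 1 clone (clone M) that carries several insertions of lacO, the operator sequence bound by the lac repressor. In 3 tethered samples the insertion lay at the nuclear periphery, and in 3 untethered samples it lay centrally in the nucleus. All 6 were grown alike in serum-containing medium to similar confluency, and each carries a replicate number from 1 to 3 in the labels. The study asked how genes are transcribed when their region is brought to the inner nuclear membrane. A single clone was used, and no label says whether the arrays of 1 group came from separate cultures, so p-values measure only the spread between these samples, which may be technical.

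Cytosolic chaperones bind unfolded or newly made proteins and help them fold, and they are the best known products of the heat shock response. HSF1, the main heat shock transcription factor, is held inactive in unstressed cells, and on heat or other protein damage it binds heat shock elements, arrays of inverted GAA units, in the promoters of these genes. Hspa8 and Hsp90ab1 are largely constitutive, while Hspa1a and Hspa1b are the strongly inducible HSP70 genes. HSP70 works in a cycle in which J-domain proteins such as Dnajb1 and Dnaja1 deliver the client and stimulate ATP hydrolysis, and nucleotide exchange factors such as Hsph1 and Bag3 release it.

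Promoter sequences from RefSeq (build GRCm38.p6) were at hand for 7 of the 10 genes, with 11 annotated starts. A start is shown for each gene with a match to a heat shock element before an annotated start, so that possible sites of HSF1 can be seen. Dnajb1 and Bag3 had no match there and are not shown. Each line gives the 250 bases before an annotated start, 5' to 3', and capitals mark matches to a heat shock element of 2 units, GAA and TTC in either order with any 2 bases between them, searched on both strands. The first 2 lines are the near-identical copies of the inducible HSP70 gene, at chr17:34972157-34972406 and chr17:34959239-34959488, both on the minus strand. The third is Hsph1 (chr5:149636337-149636586, minus strand), the fourth is the most upstream start of Dnaja1 (chr4:40722218-40722467, plus strand), and the last is Hspb1 (chr5:135887669-135887918, plus strand).
Hspa1a: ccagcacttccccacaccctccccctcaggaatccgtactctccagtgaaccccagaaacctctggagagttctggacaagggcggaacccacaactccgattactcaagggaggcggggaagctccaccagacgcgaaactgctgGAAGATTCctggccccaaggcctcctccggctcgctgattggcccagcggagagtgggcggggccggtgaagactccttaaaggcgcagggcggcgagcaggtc
Hspa1b: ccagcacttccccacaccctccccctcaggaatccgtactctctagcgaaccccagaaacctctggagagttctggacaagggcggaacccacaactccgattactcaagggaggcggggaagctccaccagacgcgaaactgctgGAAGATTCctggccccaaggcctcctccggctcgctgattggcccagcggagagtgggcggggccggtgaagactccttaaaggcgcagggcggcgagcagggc
Hsph1: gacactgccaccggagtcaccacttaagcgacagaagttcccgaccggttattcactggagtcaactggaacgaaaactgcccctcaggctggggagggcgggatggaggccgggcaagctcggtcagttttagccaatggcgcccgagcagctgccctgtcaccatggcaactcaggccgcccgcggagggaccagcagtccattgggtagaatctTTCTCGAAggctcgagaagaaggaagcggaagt
Dnaja1: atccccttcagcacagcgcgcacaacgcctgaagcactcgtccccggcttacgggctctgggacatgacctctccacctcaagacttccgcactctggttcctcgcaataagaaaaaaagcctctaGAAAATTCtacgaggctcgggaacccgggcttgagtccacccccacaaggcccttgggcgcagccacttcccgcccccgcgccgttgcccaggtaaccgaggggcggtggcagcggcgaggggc
Hspb1: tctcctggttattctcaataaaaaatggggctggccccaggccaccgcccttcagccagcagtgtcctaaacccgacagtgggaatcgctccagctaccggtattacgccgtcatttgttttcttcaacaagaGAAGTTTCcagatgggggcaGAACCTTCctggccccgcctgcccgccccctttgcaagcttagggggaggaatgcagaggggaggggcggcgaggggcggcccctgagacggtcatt

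The promoters of Hspa1a and Hspa1b differed at 3 of 250 bases. Counted from the first printed base, with the base of Hspa1a first, the differences were C44T, T47C and T249G. Both carried GAAGATTC 104 bases before the start. Matches were sought in a window from 250 bases before to 50 bases after each start. A 2-unit match lay in 7 of the 11 windows, against 15.1% of all 32851 promoter windows of this length. The windows of Hspa1a and Hspa1b are near copies, the 2 of Hsph1 overlap and so do 2 of Dnaja1, so the 11 windows are not separate counts. By gene, 6 of the 7 had a match at 1 or more of their starts. Dnajb1 was the 1 gene of the 7 with no match at either of its 2 starts. The longer motif of 3 alternating units, spaced in the same way, searched on both strands and itself made of overlapping 2-unit matches, was found in Hsph1 alone among them, as TTCTGGAAAGTTC beginning at base 37 after its first listed start, and in 0.603% of all windows. Hspb1 had 2 separate 2-unit matches, and the match of Bag3 lay after the start. A TATA box spelled TATAAA was found in none of the 11 windows, against 13.6% of all windows, while the GC box GGGCGG, searched on both strands, was found in every one of the 11 and in 35.7% of all. A match describes letters only and shows no binding.

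Of the 23 probe sets, 20 for 8 genes were bright enough to be tested, meaning that their mean on the log2 scale exceeded 8.93, the median over the non-control probe sets. The 3 others were the single probe set of Hspa1a and a pair for Hsp90aa1. Log2 intensities are compared below between arrays for 1 probe set at a time, since probe sets differ in how well they bind. A fold change is tethered minus untethered on the log2 scale, from limma with Benjamini-Hochberg adjustment over all 22518 tested probe sets. Fibroblast markers fitted the label: 9 of 9, among them Col1a1 and Vim, lay above that median, at a median percentile of 98.9 of all probe sets. Of the macrophage, endothelial, epithelial, muscle and adipocyte markers measured, 3 of 6, 3 of 5, 1 of 5, 3 of 5 and 1 of 4 did so. The median array intensity ran from 482.4 to 490.9. The arrays numbered 1, 1 of each group, correlated at 0.977 with each other over tested probe sets. The tethered one reached 0.92 and 0.933 with the others of its own group and the untethered one 0.941 and 0.959, and the other 4 arrays correlated at 0.965 to 0.991.

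Between tethered and untethered cells, no chaperone probe set passed the threshold. Of the 20 tested, 0 had an adjusted p under 0.05, against 0% of all 22518, and 0 had an unadjusted p under 0.05, against 2.38% of all (limma). Values lay below 0 for 12 of the 20 (11 after quantile normalization) and above 0 for 8, with a median of -0.045, beside a median of -0.016 and 55.9% below 0 among all tested probe sets. For 15 of the 20 the difference was smaller than its standard error in this fit, which leaves the replicate number out. With the number as a block, the standard error fell from 0.25 to 0.063 for Hsph1 1425993_a_at. It fell from 0.35 to 0.086 for Dnaja1 1459835_s_at and rose from 0.068 to 0.075 for Hspa8 1420622_a_at, so the count depends on the fit. Single values ran from -0.44 to 0.07, and the 95% confidence intervals together spanned -1.003 to 0.70, both ends from a probe set of Dnaja1. The adjusted p was 0.999 for each of the 20. With the brightest tested probe set of each gene, 5 of 8 genes lay below 0 and their median was -0.058, beside -0.022 over all 11846 genes, and without both arrays numbered 1 the median was 0.013. In RNA from whole cultures, less RNA per cell and fewer cells that hold the RNA cannot be told apart.

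**Figure D1:**
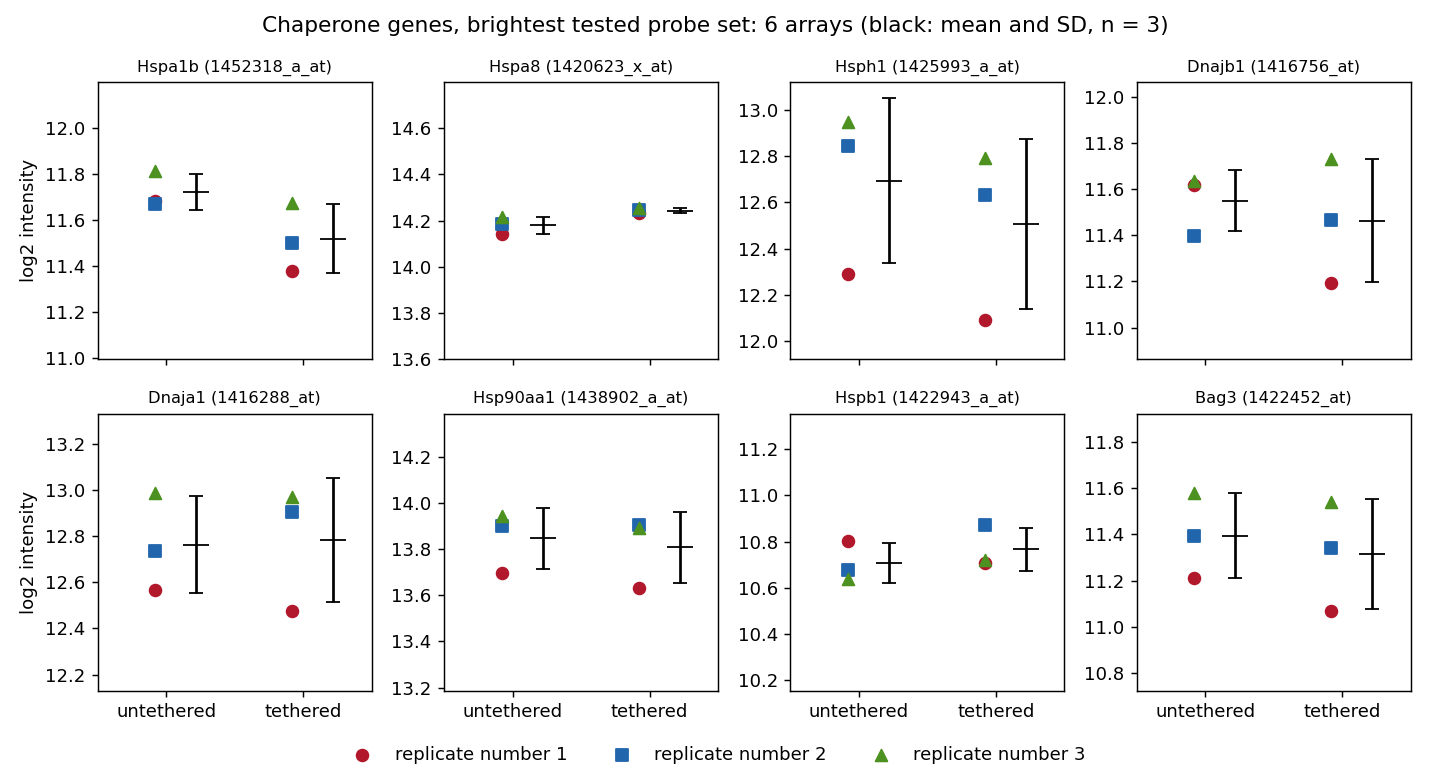
Log2 intensity of the brightest tested probe set of each of 8 chaperone genes, by group, with 1 point per array (colour and shape give the replicate number) and the mean and SD of 3 arrays in black; every panel spans the same height of log2 units. The groups overlap in every panel except that of Hspa8, and the arrays numbered 1 are the lowest pair for Hsph1, Dnaja1, Hsp90aa1 and Bag3.

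Hspa1b, an inducible HSP70, stood below 0 on all 3 of its probe sets, none past the threshold. Its brightest probe set (1452318_a_at) read 11.38, 11.50 and 11.68 in tethered replicates 1, 2 and 3 and 11.68, 11.67 and 11.81 in the untethered ones. The highest tethered array thus reached the lower untethered arrays, and the groups overlapped narrowly. Its log2 fold change was -0.20 (SE 0.096, 95% interval -0.44 to 0.03, limma unadjusted p = 0.080, adjusted p = 0.999), from 11.72 ± 0.08 to 11.52 ± 0.15 (SD, n = 3 each), so that the tethered level was 86.9% of the untethered. Without both arrays numbered 1 it was -0.15. The other probe sets of the gene, 1427127_x_at and 1427126_at, stood at -0.17 (SE 0.12) and -0.12 (SE 0.18). All 3 share the source transcript in the annotation, so they are no independent evidence of each other. Hspa1a, its near copy, was measured by 1 dim probe set that read from 6.97 to 7.11 over the 6 arrays, at percentile 12.4 of all probe sets, with 7.03 ± 0.07 in tethered and 7.03 ± 0.05 in untethered arrays (SD, n = 3 each). It was not tested. Because the 2 genes are nearly identical in sequence, the probe sets named for Hspa1b may take up RNA of both, and which gene gave the signal is uncertain.

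Hspa8, the constitutive HSP70, varied little on its 3 bright probe sets, which spanned 0.10, 0.11 and 0.18 over the 6 arrays. Its probe set 1420623_x_at read 14.23, 14.24 and 14.26 in the tethered arrays and 14.14, 14.18 and 14.21 in the untethered arrays. These groups did not overlap, but the difference was 0.06 (SE 0.058, 95% interval -0.08 to 0.21, limma adjusted p = 0.999), a tethered level 104.5% of the untethered. It was the 1 tested chaperone probe set of 20 whose groups did not overlap, where 8.16% of all tested probe sets showed the same and 4.3% did so with the tethered arrays higher. The summed intensity of 5 endothelial markers did not overlap either, at 2625 to 2728 in tethered and 2421 to 2561 in untethered arrays. Of these markers Cdh5 and Tek lay below the median of all probe sets. The sums of the fibroblast, macrophage, epithelial, muscle and adipocyte markers all overlapped between the groups. The part of the endothelial sum in the value of Hspa8 was not tested. The probe sets 1420622_a_at and 1455789_x_at stood at 0.06 and 0.01. The fourth, 1431182_at, was much dimmer and stood at -0.18 (SE 0.15), with 9.36, 9.35 and 9.61 in tethered and 9.31, 9.75 and 9.79 in untethered arrays. Probe sets of Hspa8 therefore did not point the same way.

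Among the J-domain partners of HSP70, Dnajb1 held the largest value of the list. Its probe set 1416755_at read 10.45, 10.74 and 11.20 in tethered replicates 1, 2 and 3, against 11.23, 11.31 and 11.16 in the untethered ones. Tethered replicate 3 lay within the untethered range, and the tethered arrays were spread more widely, at 10.80 ± 0.38 against 11.23 ± 0.08 (SD, n = 3 each). The fold change was -0.44 (SE 0.19, 95% interval -0.90 to 0.03, limma unadjusted p = 0.0606, adjusted p = 0.999), which corresponds to 73.9% of the untethered level. The brighter probe set of the same gene, 1416756_at, read 11.19, 11.46 and 11.73 in tethered and 11.62, 11.40 and 11.63 in untethered arrays and stood at -0.09 (SE 0.15). The difference seen on 1 probe set was thus not of the same size on the other. Between the arrays numbered 1 the first probe set differed by -0.78 and the second by -0.42, between those numbered 2 by -0.57 and 0.07, and between those numbered 3 by 0.04 and 0.10. Without both arrays numbered 1 the first stood at -0.27 and the second at 0.08.

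Dnaja1, another J-domain protein, had 3 probe sets with group differences of 0.02 (SE 0.17), -0.01 (SE 0.27) and -0.15 (SE 0.35). The brightest, 1416288_at, read 12.47, 12.90 and 12.97 in tethered and 12.56, 12.74 and 12.99 in untethered arrays. The groups covered almost the same range, while the 6 arrays spanned 0.51.

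The nucleotide exchange factors showed the same wide spread within groups. Hsph1 (HSP110) read 12.09, 12.63 and 12.79 in tethered and 12.29, 12.85 and 12.95 in untethered arrays on its brighter probe set 1425993_a_at, with a fold change of -0.19 (SE 0.25), and -0.18 without both arrays numbered 1. The second probe set, 1423566_a_at, stood at -0.05 (SE 0.25) and read 11.96, 12.56 and 12.69 against 12.13, 12.41 and 12.83. Bag3, which links HSP70 to small heat shock proteins and to autophagy, read 11.07, 11.34 and 11.54 in tethered and 11.21, 11.39 and 11.58 in untethered arrays, a fold change of -0.08 (SE 0.15). In both genes the lowest array of each group was the one numbered 1.

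Hsp90aa1, the inducible cytosolic HSP90, was measured by 3 bright probe sets with differences of -0.04 (SE 0.11), 0.05 (SE 0.13) and 0.07 (SE 0.12). The brightest, 1438902_a_at, read 13.63, 13.90 and 13.89 in tethered and 13.70, 13.90 and 13.94 in untethered arrays. The 2 dim probe sets of the gene, 1441827_x_at and 1433251_at, lay below the intensity filter and were not tested. The first read 7.10, 7.16 and 7.20 in tethered and 7.25, 7.33 and 7.25 in untethered arrays, so its groups did not overlap. It lay at percentile 14.9 of all probe sets. Groups did not overlap for 8.16% of tested probe sets, and no such share was counted for dim ones. The second read from 7.63 to 7.85 with groups that overlapped. Hspb1, the small heat shock protein HSP25, read 10.71, 10.87 and 10.72 in tethered and 10.80, 10.68 and 10.64 in untethered arrays, a difference of 0.06 (SE 0.081), and its second probe set stood at 0.07 (SE 0.084). In the fit of the group alone, none of the tested probe sets of these 2 genes showed a group difference larger than its standard error. With the replicate number as a block, Hsp90aa1 1437497_a_at did, at 0.0727 (SE 0.0706, limma adjusted p = 0.796).

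**Figure D2:**
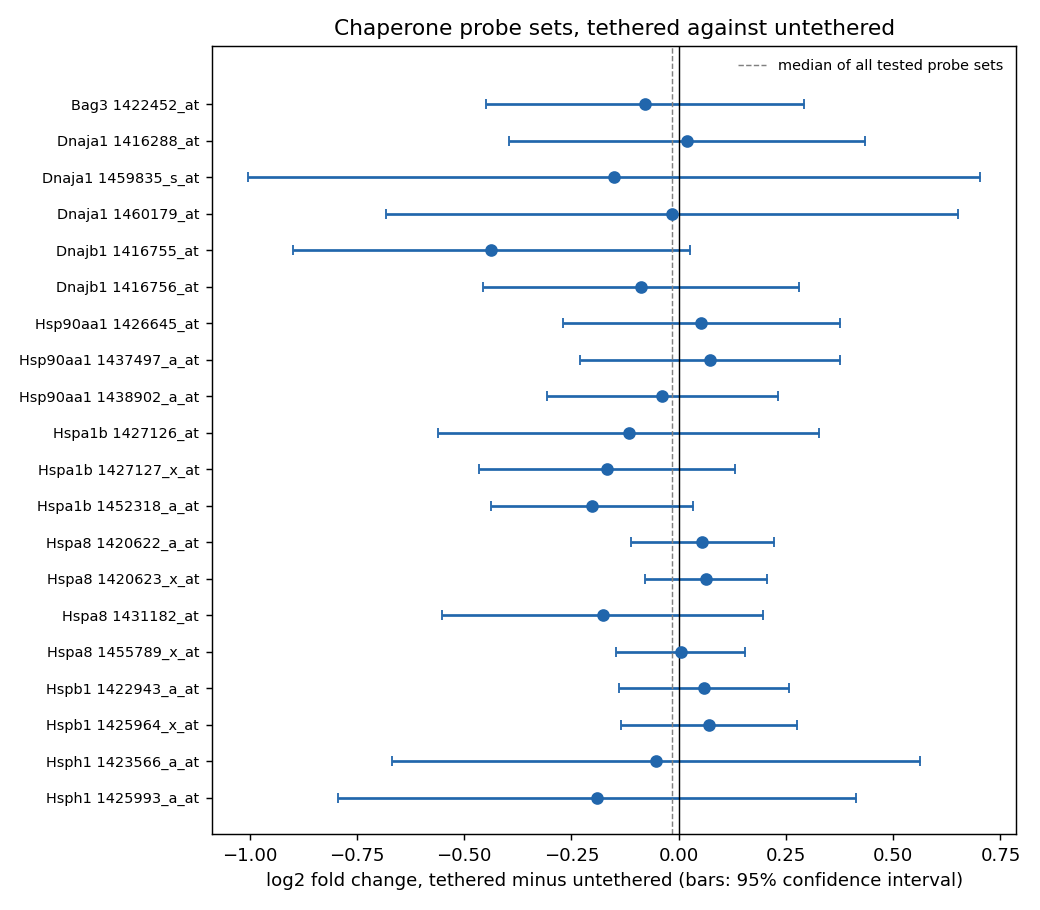
Log2 fold change (tethered minus untethered) of the 20 tested chaperone probe sets, with the 95% confidence interval from limma; the dashed line is the median of all 22518 tested probe sets (-0.016). Every interval crosses 0, and the widest belong to probe sets of Dnaja1, Hsph1 and Dnajb1.

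A second comparison asked whether arrays of the same replicate number shared a level, by an F test of the number beside the group. The difference quoted is the mean of numbers 2 and 3 minus number 1, on the log2 scale. By this test 2 of the 20 chaperone probe sets passed, 1 of Dnaja1 and 1 of Hsph1, where 5.16% of all tested probe sets passed (limma F test, adjusted p under 0.05). At an unadjusted p under 0.05 there were 9 of 20, against 22.6% of all, and after quantile normalization 4 of 20, against 23.2%. Both arrays numbered 1 lay below the other 4 arrays on 9 of the 20, against 23.3% of all tested probe sets, and above them on 0 of the 20, against 12.2%; this count was chosen after its values were seen. The difference was above 0 for 18 of the 20, with a median of 0.24, beside 56% and a median of 0.024 over all. After quantile normalization it was above 0 for 16 of 20 with a median of 0.11, beside 43% and a median of -0.029 over all. Of the 1161 probe sets that passed, 92.4% were lower in the arrays numbered 1, and 76.8% of 1214 after quantile normalization.

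The largest of these differences belonged to Dnaja1 on its probe set 1459835_s_at. The values were 9.64 and 9.78 in the arrays numbered 1, tethered first, 10.21 and 10.53 in those numbered 2, and 10.73 and 10.72 in those numbered 3. Both arrays numbered 1 thus lay well below the other 4, and the difference was 0.83 (SE 0.091, limma F test adjusted p = 0.0273). The other probe sets of the gene stood at 0.61 (SE 0.11, adjusted p = 0.066) and 0.38 (SE 0.084, adjusted p = 0.113) and did not pass. The suffix of the passing probe set marks one whose probes can match transcripts of more than 1 gene.

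Hsph1 came next, with 12.09 and 12.29 in the arrays numbered 1 on 1425993_a_at, 12.63 and 12.85 in those numbered 2 and 12.79 and 12.95 in those numbered 3. The tethered array was the lower one at each number, and the difference between numbers was 0.62 (SE 0.066, limma F test adjusted p = 0.0287). After quantile normalization it was 0.43 with an adjusted p of 0.061, so the call was lost. The second probe set stood at 0.57 (SE 0.095, adjusted p = 0.0589). Bag3 stood at 0.32 (SE 0.069, adjusted p = 0.092) and the brightest Hsp90aa1 probe set at 0.25 (SE 0.067, adjusted p = 0.195), neither past the threshold. The inducible Hspa1b stood at 0.13, 0.15 and 0.19 on its 3 probe sets, which were -0.014, 0.021 and 0.11 after quantile normalization. With 1 array left out they ran from 0.06 to 0.21, 0.04 to 0.25 and 0.03 to 0.34. The brightest Hspa8 probe set gave 0.04 (SE 0.066) and its other bright ones 0.07 and 0.03. The dimmer Hspa8 probe set 1431182_at stood higher, at 0.29 (SE 0.11, limma F test adjusted p = 0.302). Hspb1 stood at -0.03 (SE 0.087) and -0.07 (SE 0.080) on its 2 probe sets. Leaving out 1 array changed how many chaperone probe sets passed: 0 without tethered replicate 1, tethered replicate 3 or untethered replicate 3, and 4 without either array numbered 2.

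**Figure D3:**
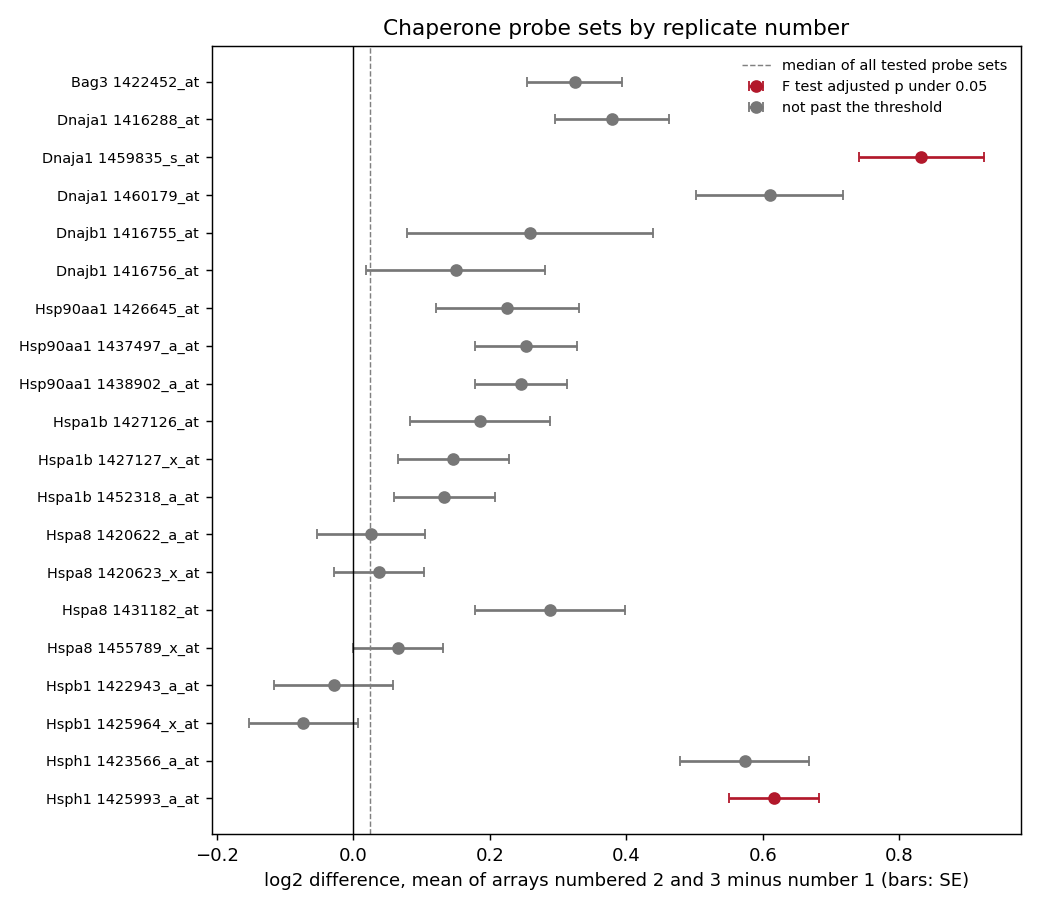
Log2 difference between the mean of the arrays numbered 2 and 3 and those numbered 1, beside the group term, for the 20 tested chaperone probe sets, with standard errors; red marks probe sets past the adjusted threshold of the F test, and the dashed line is the median of all tested probe sets (0.024). The probe sets of Dnaja1 and Hsph1 lie farthest to the right and those of Hspb1 lie below 0.

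Measures of RNA quality differed between arrays as well. For the transferrin receptor control, the 5' signal less the 3' signal was -2.09, -1.67 and -1.55 in tethered replicates 1, 2 and 3 and -2.81, -3.07 and -1.52 in the untethered ones, and that of the actin control was -0.29, -0.10 and -0.12 against -0.31, -0.56 and -0.15. At its 5' probe set the 18S rRNA control read 10.94, 10.48 and 10.79 in tethered and 12.06, 12.16 and 11.15 in untethered arrays (log2), lower in each tethered array than in any untethered one. The mean deviation of the 8 chaperone genes from their own 6-array means was -0.23, 0.03 and 0.12 in the tethered and -0.08, 0.02 and 0.14 in the untethered arrays. The chaperone mean was lowest in the 2 arrays numbered 1 and highest in the 2 numbered 3. The 5' less 3' difference of the transferrin receptor was lowest in untethered replicates 2 and 1, and among tethered arrays in replicate 1. That of actin was lowest in untethered replicates 2 and 1 and tethered replicate 1. For the Gapdh control it ran from -0.06 in untethered replicate 2 to 0.095 in tethered replicate 1. The part of RNA quality in these values was not tested.

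Other genes of the chaperone network were followed in 8 lists, of which 78 genes were tested on their brightest probe set. Between the groups 0 of the 78 passed the adjusted threshold in either direction and 61 had values below 0, beside 58.8% of all genes. At an unadjusted p under 0.05 (limma) there was 1 of the 78, where 2.38% of all tested probe sets were. It was Dnajc13, a J-domain protein of endosomes, at -0.31 (SE 0.12, limma adjusted p = 0.999). Its groups did not overlap, as was so for 8.16% of all tested probe sets. Its relatives Dnajc14 and Dnajb2 stood at -0.22 and -0.19. All 14 tested genes of the chaperonin TRiC and of prefoldin, which fold actin and tubulin, had values below 0, from -0.17 (Pfdn5) to -0.01 (Tcp1), with a median of -0.07 that was -0.04 after quantile normalization, with 11 of 14 below 0. Without tethered replicate 1, untethered replicate 2 or untethered replicate 3 the count was 5, 7 and 8 of 14. For the co-chaperones of HSP90, 10 of 14 lay below 0 with a median of -0.03, which turned to 0.02 with 6 of 14 after quantile normalization, and the count was 5 without tethered replicate 1 and 4 without untethered replicate 3. Of the HSP70 relatives and exchange factors 6 of 9 lay below 0, of the J-domain proteins 11 of 15, of the small heat shock proteins 5 of 6, of the mitochondrial chaperones 6 of 10, and of the collagen and endoplasmic reticulum chaperones 8 of 9. After quantile normalization these counts were 5, 9, 3, 4 and 7, in the same order. With 1 array left out, the count of the endoplasmic reticulum list fell to 2 without untethered replicate 1, 3 without tethered replicate 2 and 5 without tethered replicate 3, and that of the small heat shock proteins to 1 without tethered replicate 3, 3 without untethered replicate 2 and 2 without untethered replicate 3. The count of the HSP70 relatives was 3 without untethered replicate 3 and 9 without untethered replicate 1, and that of the mitochondrial chaperones was 3 without tethered replicate 2 and 4 without untethered replicate 2 or 3. Hsbp1, which encodes a protein that binds HSF1, stood at -0.11 (SE 0.095) and was the 1 gene tested from the list of heat shock factors. No probe set carried Hsf1 as its symbol, so it was not analysed here.

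By replicate number 9 of the 78 passed, where 5.16% of all tested probe sets did (limma F test, adjusted p under 0.05), and without either array numbered 3 no tested probe set passed at all. The 5.16% counts every tested probe set, while the 78 are genes on their brightest one, so the shares are not like for like. Of the 9 genes, those lower in the arrays numbered 1 were Hspa4 (0.73, SE 0.081), an HSP110 relative of Hsph1, Hspa14 (0.71, SE 0.095), an atypical HSP70, Ahsa1 (0.79, SE 0.084), the activator of the HSP90 ATPase, the HSP90-binding immunophilins Fkbp4 (0.605, SE 0.087) and Fkbp5 (0.50), the chaperonin subunit Cct3 (0.53, SE 0.073), the mitochondrial exchange factor Grpel1 (0.64, SE 0.078) and Dnajc9 (1.31, SE 0.081), a J-domain protein that also binds histones. Fkbp5 was named after its values were seen. The ninth, Pdia4, a protein disulphide isomerase of the endoplasmic reticulum, ran the other way at -1.54 (SE 0.12). All 9 tested genes of the collagen and endoplasmic reticulum list stood below 0, with a median of -0.41, among them Hspa5, Hsp90b1 (-0.37, SE 0.095) and Calr (-0.40, SE 0.084), and after quantile normalization all 9 still did. Of the chaperonin and prefoldin genes 12 of 14 stood above 0 with a median of 0.31, and 10 of 14 with 0.16 after quantile normalization. The HSP70 relatives and exchange factors had 8 of 9 above 0 (median 0.37) and the HSP90 co-chaperones 13 of 14 (0.17), with 8 of 9 (0.32) and 10 of 14 (0.067) after quantile normalization. For the J-domain, mitochondrial and small heat shock protein lists the medians were 0.09, 0.09 and 0.02, and each turned below 0 after quantile normalization, at -0.03, -0.04 and -0.04. Within the last list Hspb11, an intraflagellar transport subunit despite its name, stood at -0.97 (SE 0.15, adjusted p = 0.051).

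**Figure D4:**
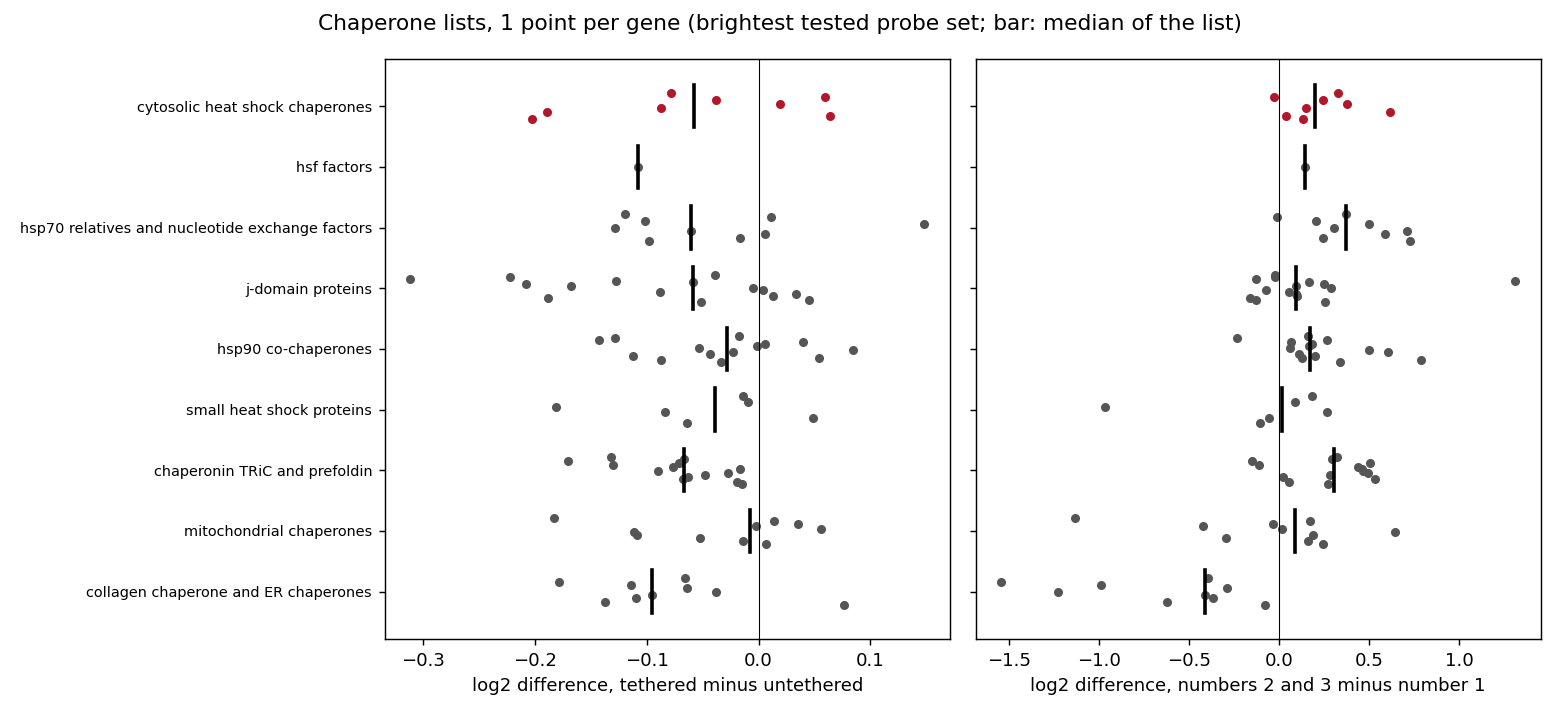
Log2 differences of the chaperone genes and of 8 further lists, 1 point per gene on its brightest tested probe set, tethered minus untethered on the left and numbers 2 and 3 minus number 1 on the right, with each list's median as a bar; the horizontal scales differ. On the right the cytosolic lists of HSP70 relatives and of chaperonin lie mostly above 0 and all 9 genes of the endoplasmic reticulum list lie below 0.

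The genes whose pattern was most like the mean of the 8 chaperones over the 6 arrays were Magee1, Pgm2, Mrpl42, Nkrf, Uqcrh and Ccnd3, with Pearson's r from 0.991 to 0.998. They were picked for the highest r of 11838 genes over only 6 arrays, of which those numbered 1 held the lowest chaperone means, so r is a description without a test. Mrpl42 encodes a mitochondrial ribosomal protein, Uqcrh a respiratory chain subunit and Ccnd3 cyclin D3, and none is a chaperone. In the same ranking 954 genes had r above 0.9. Ccnd3 read 10.77, 11.60 and 11.84 in tethered and 11.12, 11.57 and 11.85 in untethered arrays, lowest in both arrays numbered 1 as Hsph1 was.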

How the data were processed

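The authors' deposited table held 1 intensity per probe set and array on a linear scale, per the file's values. The sources used here do not name the software or the scaling behind it. RNA was extracted with Trizol and labelled with biotin, per the labels' protocols. The number of arrays, 3 per group, limits the precision. Symbols came from the platform annotation, brought up to date by a RefSeq gene table of GRCm38.p6, and 64 control probe sets were left out of the tests.

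Values were raised to a floor of 16 and put on the log2 scale. Probe sets with a mean above the median of all were tested with limma 3.58.1 in R 4.3.3 (lmFit, eBayes, two-sided, Benjamini-Hochberg over 22518 probe sets), for the group alone and, as an F test, for the replicate number beside the group. The procedure was tested on simulated data. The noise there was drawn separately for each array, whereas same-numbered arrays of the data shared levels. The simulation therefore did not cover noise of that kind. The brightest tested probe set stood for a gene in lists. All members were named, with up to 3 genes per list of smallest group p, up to 2 of smallest F-test p, and the 6 genes most correlated with the members' mean. The members and lists were chosen with earlier results of these data known. Alternatives were quantile normalization, median centring, no filter, a floor of 64, a replicate block, an unmoderated test, averaging the probe sets of a gene, leaving out each array, and leaving out both arrays numbered 1.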

Additional observations from a re-analysis of the deposited data

How the results depend on the processing

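Limma called 0 probe sets between the groups under every alternative run, the replicate block included; with that block the unadjusted p was under 0.05 for 2 of the 20 chaperone probe sets, Hsph1 1425993_a_at (-0.19, unadjusted p = 0.0298) and Hspa1b 1452318_a_at (-0.20, unadjusted p = 0.0341), against 5.47% of all, both with an adjusted p of 0.740 (limma). Deviations of same-numbered arrays from their group means correlated at 0.71, 0.075 and 0.71 over 22518 probe sets for numbers 1, 2 and 3. Such deviations sum to 0 within a group, so the correlations are not separate checks. The low one does not show whether the arrays numbered 2 were paired. The block moved the count of calls from 0 to 0. The median of the 8 chaperone genes, -0.058, ran from -0.13 to 0.05 with 1 array left out, was 0.013 without both arrays numbered 1, -0.022 after quantile normalization and -0.063 when the probe sets of a gene were averaged.

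Group differences that changed sign, none past the threshold, were Dnaja1 1460179_at at 0.016 after quantile normalization, and, without both arrays numbered 1, Dnaja1 1460179_at at 0.11, Dnajb1 1416756_at at 0.081, Hspa8 1420622_a_at at -0.0083 and 1455789_x_at at -0.0033, and Hsph1 1423566_a_at at 0.0069. With 1 array left out, Bag3 ran from -0.19 to 0.046, Dnaja1 from -0.08 to 0.17 (1416288_at), -0.43 to 0.13 (1459835_s_at) and -0.22 to 0.25 (1460179_at), Dnajb1 1416756_at from -0.22 to 0.047, Hsp90aa1 from -0.0079 to 0.17 (1426645_at) and -0.11 to 0.051 (1438902_a_at), Hspa1b 1427126_at from -0.25 to 0.023, Hspa8 1455789_x_at from -0.021 to 0.028, and Hsph1 from -0.21 to 0.17 (1423566_a_at) and -0.39 to 0.018 (1425993_a_at). Without a change of sign, Hspb1 ran from 0.0067 to 0.11 (1422943_a_at) and 0.018 to 0.13 (1425964_x_at), Hspa1b from -0.26 to -0.08 (1427127_x_at) and -0.28 to -0.13 (1452318_a_at), Hspa8 from 0.015 to 0.08 (1420622_a_at), 0.04 to 0.08 (1420623_x_at) and -0.33 to -0.09 (1431182_at), Hsp90aa1 1437497_a_at from 0.0023 to 0.18, and Dnajb1 1416755_at from -0.64 to -0.26. The cause was not tested.

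By replicate number, 645 probe sets passed with no filter on dim probe sets, where 45037 were tested, and 0 to 2979 with 1 array left out (0 without either array numbered 3, 561 without tethered replicate 1, 2979 and 2588 without the tethered or untethered array numbered 2). Of the chaperone probe sets 1 passed after quantile normalization, and 0 to 4 with 1 array left out. Differences by number that changed sign were Hspa1b 1452318_a_at at -0.014 and Hspa8 1420622_a_at at -0.079 after quantile normalization, and, with 1 array left out, Dnajb1 1416756_at (-0.10 to 0.40), Hspa8 1420622_a_at (-0.069 to 0.12) and Hspb1 1422943_a_at (-0.15 to 0.088).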
